A study of Mus musculus with 2 samples.

Results

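The cells described here are the 268 of 5678 cells that the authors' cell table names Endodermal Progenitor, found by their barcodes in the deposited matrices. They came from 1 droplet-based gene expression library of E11.5 mouse embryos, in which 4 cell suspensions were labelled with lipid-bound oligonucleotides and pooled. F0_8 and F0_9 were founder embryos (76 and 56 of these cells), F1_1 was an F1 embryo (69 cells), and F1_mix was a pseudo-mosaic of cells from 2 F1 embryos (67 cells). All embryos carried a DNA barcode-linked EGFP transgene on a piggyBac vector under the broadly active CAG promoter, so no suspension lacked the transgene. Embryos were dissociated with trypsin and sorted by flow cytometry to remove debris, and no barcode was shared between suspensions (0). Each suspension was 1 unit of comparison, and cells of 1 suspension were not counted as replicates.

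Definitive endoderm gives rise to the lining of the gut, lung, liver and pancreas, and its progenitors are recognised by transcription factors such as Sox17, Foxa1 and Gata6 and by the tight junction protein Cldn6. The mitochondrial genome encodes subunits of the respiratory chain and the ATP synthase, and its transcripts stay inside the organelle. Cytosolic mRNAs, among them those of ribosomal proteins, lie outside it, and long unspliced transcripts lie mainly in the nucleus.

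The name was not borne out by the markers of endoderm. In all 268 cells together, 3 UMIs (unique molecular identifiers, 1 per captured transcript) of the 4 label markers were found, 1 each of Foxa1, Gata6 and Cldn6 and 0 of Sox17. That is 0.274 per 10000 UMIs outside mitochondrial (mt-) genes (exact 95% Poisson interval 0.0566 to 0.802), against 0.242 in the 12 deep cell types and 0.187 in background barcodes. Deep types were those whose median depth was not below the median of all cells, 12071.5 gene UMIs, divided by 3, and background barcodes were the 53821 barcodes with 100 to 300 gene UMIs that no suspension matrix holds. Of 18 gut endoderm genes, 6 had a UMI and 12 were at 0, among them Hnf4a, Cdx2, Pdx1 and Nkx2-1, and 7 of their 16 UMIs were Hhex in a single cell. Their summed level was 1.46 per 10000 (0.907 without that cell), against 0.603 in the deep types and 0.996 in background barcodes. Of 17 liver and yolk sac endoderm genes, 14 were at 0, including Afp, Alb, Ttr and Apoa1. Dab2, an endocytic adaptor also made by macrophages, gave 21 of the 24 UMIs of that list, 12 of them in 1 cell, and the list stood at 2.19 against 1.02 in the deep types and 0.834 in background barcodes. A count of 0 in these cells allows a level of up to 0.274 per 10000 (3 counts, a one-sided limit), and intervals cover counting error only. The name is used below as the label of a cluster.

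The cells were poor in RNA outside the mitochondria. By the median they held no fewer mitochondrial UMIs than cells of the 10 deep types other than red blood cells. The median cell held 721.5 gene UMIs, and the medians of F0_8, F0_9, F1_1 and F1_mix were 726, 692.5, 697 and 724. The lowest value was 504 gene UMIs and 66 cells (24.6%) lay below 600, so many cells sat just above the smallest depth in the table. The median number of mt- UMIs per cell was 423.5, 395.5, 416 and 385 in the same order of suspensions. In the 10 deep types other than red blood cells it was 303, 321, 349.5 and 321, so the annotated cells had the higher median in each suspension. Hepatocyte cells, with 363, 325.5, 433 and 390, were also above those deep types in each. Midgut and Foregut cells were below them in each. Outside the mt- genes the order was the opposite. Medians of 320.5, 304.5, 293 and 345 UMIs stood against 12225, 12614, 15142 and 14588 in those deep types, 42.6-fold fewer with the suspensions pooled. No test was run on these levels, because the clusters were formed from the same genes.

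**Figure D1:**
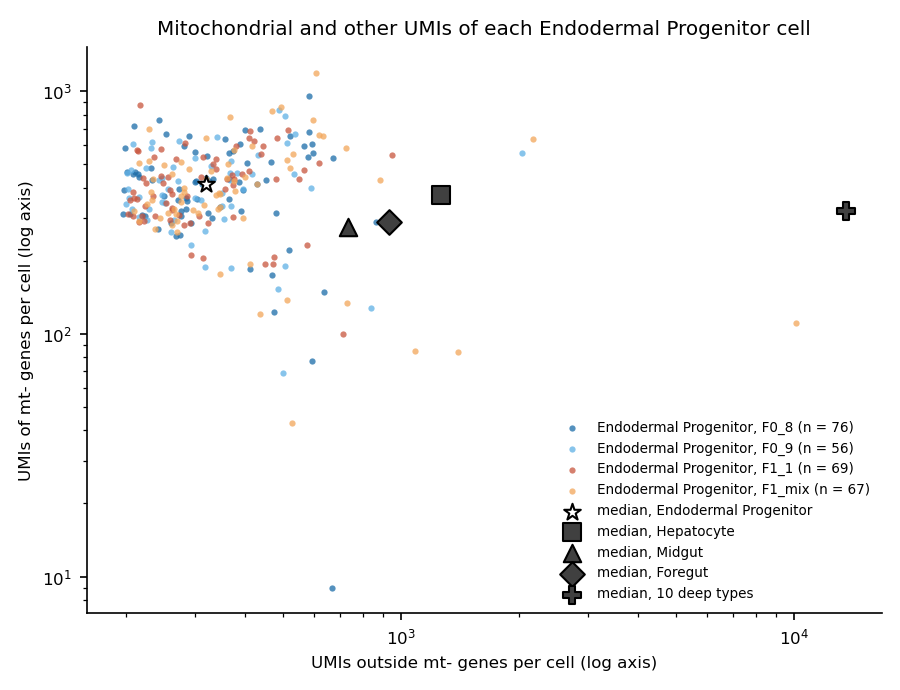
Each point is 1 of the 268 cells, coloured by suspension, with its UMIs outside mt- genes on the horizontal log axis and its mt- UMIs on the vertical log axis; large symbols are the medians of 4 shallow cell types and of the 10 deep types other than red blood cells. The star at 318.5 and 412 UMIs stands far to the left of the deep types at 13555 and 321, at a similar height.

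Mitochondrial genes accordingly took a median of 55.9% of the gene UMIs, with 55.9%, 57.2%, 57.3% and 53.5% for F0_8, F0_9, F1_1 and F1_mix. The suspensions overlapped over nearly their whole range, and 221 of the 268 cells (82.5%) had a share between 40% and 70%. Only 5 cells lay below 10%. The percentages deposited by the authors, taken over gene and oligo UMIs together, had a median of 1.94% and a highest value of 4.71% in these cells, whereas 266 of them (99.3%) had 5% or more of their gene UMIs in mt- genes. Of all cells in the table with an mt- share of 50% or more, 198 of 220 (90%) bore this name, and the others were Midgut (19) or Hepatocyte (3). All 91 cells at 60% or more bore it, and 0 cells of the deep types reached 40%.

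A single cell stood apart and weighed on pooled values. It came from F1_mix and held 10237 gene UMIs, 1.08% of them mitochondrial, and 9.26% of all UMIs outside mt- genes in the 268 cells (26.6% of those in F1_mix). Its leading genes included Pf4 (150 UMIs, platelet factor 4), Itga2b (41) and Itgb3 (44), the chains of the platelet fibrinogen receptor, and Nrgn (55). In each of these genes it gave 97.6% to 100% of the UMIs of the 268 cells. Several values are therefore also given without it. With it, mt- genes took 42.4% of the pooled gene UMIs of F1_mix against 54.2%, 53.1% and 55.3% in F0_8, F0_9 and F1_1, and without it 49.96%.

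The make-up of the mitochondrial RNA was close to that of the deep types. The 4 transcripts with the most UMIs were mt-Co3 and mt-Co2, subunits of cytochrome c oxidase, mt-Cytb of complex III and mt-Atp6 of the ATP synthase. mt-Co3 took 21.0%, 21.1%, 19.96% and 20.3% of the mt- UMIs in F0_8, F0_9, F1_1 and F1_mix, against 20.9%, 20.6%, 19.5% and 20.2% in the 10 deep types. mt-Cytb took 16.7%, 16.5%, 17.1% and 17.3% against 16.7%, 16.3%, 16.8% and 16.7%. For 7 of the 13 genes the ranges over the suspensions overlapped between the annotated cells and the deep types. Genes of complex I lay on both sides of the deep types. mt-Nd2 made up 5.14% to 5.44% of the mt- UMIs against 4.58% to 4.71%, and mt-Nd4 6.66% to 6.96% against 6.32% to 6.45%. The 4 genes with lower shares were mt-Co2 (15.5% to 15.8% against 16.03% to 16.6%), mt-Nd3 (0.877% to 0.935% against 0.952% to 1.19%), mt-Nd4l (0.135% to 0.222% against 0.237% to 0.270%) and mt-Nd6, which rested on 37 UMIs. In background barcodes mt-Nd2 stood at 5.10% and mt-Nd4 at 6.98%, nearer to the annotated cells than to the deep types. The other shallow types, with suspensions pooled, also had higher mt-Nd4 than the deep types, 6.89% in Hepatocyte, 7.27% in Midgut and 6.78% in Foregut cells. Their mt-Nd2 was 5.09%, 4.64% and 5.57%, of which the Midgut value lay within the range of the deep types.

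**Figure D2:**
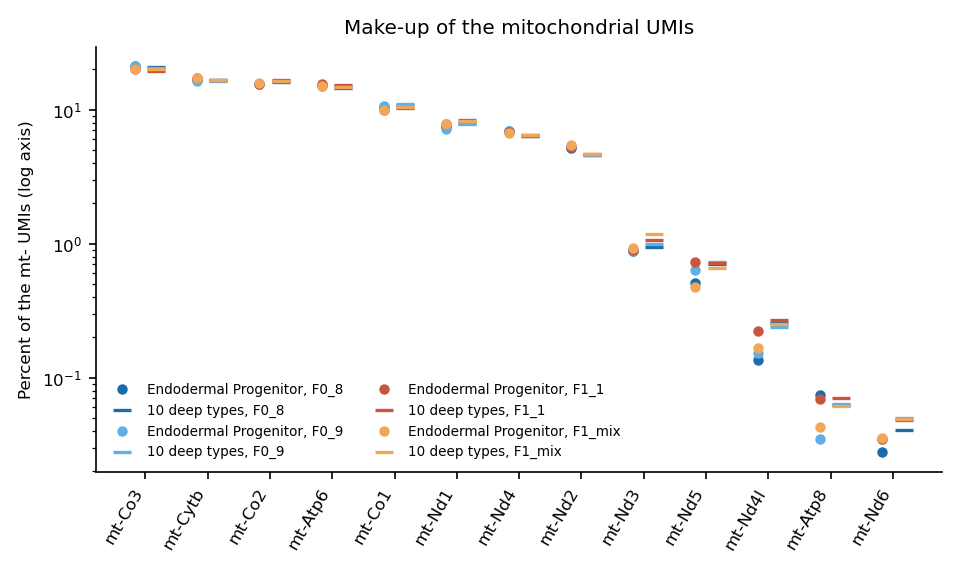
For each of the 13 mt- genes, points give its percentage of the mt- UMIs in the annotated cells of each suspension and dashes the same in the 10 deep types (vertical log axis). From mt-Co3 at 20.6% to mt-Nd6 at 0.0329% with suspensions pooled, points and dashes follow the same order of genes over most of the range.

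Of the UMIs outside the mitochondrial genome, cytosolic ribosomal protein genes took a smaller share than in the deep types and long genes a larger one. These are shares of a total whose median was 42.6-fold smaller than in the 10 deep types other than red blood cells. A larger share is not thereby a larger number per cell. The 85 cytosolic ribosomal protein genes took 7.94%, 7.63%, 9.73% and 7.39% of the UMIs outside mt- genes in F0_8, F0_9, F1_1 and F1_mix. The deep types, red blood cells included, had 17.1%, 16.8%, 18.2% and 17.7%, so all 4 suspensions lay far below, and F1_mix had 9.64% without the deepest cell. Background barcodes had 8.60%, between these values, while the Hepatocyte, Midgut and Foregut cells had 3.78%, 2.52% and 4.09%. Among the 82 of these genes that passed the filter on low values (10 UMIs expected at the mean level of both sets), 81 were lower than in the deep types in all 4 suspensions and 0 were higher. Over all 2531 genes that passed, 25.5% were lower in this way and 33.1% were higher, with a median log2 ratio of 0.38, against -1.08 for the ribosomal protein genes. All 4 suspensions share 1 library and 1 clustering, so these counts describe the cluster and are no test.

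Further lists of cytosolic and nuclear-encoded mitochondrial genes stood on the same side. Of the 20 abundant cytosolic mRNAs, 16 were lower in all 4 suspensions and 0 higher, with a median log2 ratio of -0.99. Over all 2531 genes that passed the filter, 25.5% were lower in this way and 33.1% higher. Nuclear genes of oxidative phosphorylation encode the larger part of the respiratory chain and are translated in the cytosol. Of the 63 that passed, 54 were lower in all suspensions and 0 higher, with a median log2 ratio of -1.15. Their summed level was 92.1, 95.7, 116 and 109 per 10000 in the 4 suspensions, against 228 to 235 in the deep types and 123 in background barcodes. Per cell, the RNA of the organelle and the RNA of its nuclear-encoded partners thus differed in opposite directions from the deep types other than red blood cells. Tomm20, a receptor of the import pore in the outer membrane, was among the 15 genes with the smallest ratio to the deep types, with 8 UMIs in all (0.732 against 3.61 per 10000). Uqcrh, the hinge subunit of complex III, had 14 UMIs (1.28 against 5.53).

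Genes longer than 100 kb took 33.1%, 34.6%, 30.3% and 29.98% of the UMIs outside mt- genes in F0_8, F0_9, F1_1 and F1_mix. This was above the 13.1% to 15.2% of the deep types in each suspension and close to the 32.7% of background barcodes. Barcodes below 100 gene UMIs had 12.5%. The Hepatocyte, Foregut and Midgut cells had still more, 41.3%, 39.3% and 48.4%. Of 814 long genes that passed the filter, 578 were higher in all 4 suspensions and 5 lower. Over all 2531 genes that passed, 839 (33.1%) were higher in this way, these 578 included, and 25.5% were lower. Among the 28 long genes that most cells use, 24 were higher and 0 lower, and among the 25 long neural adhesion genes 15 of the 20 that passed were higher and 0 lower. The summed level of the neural adhesion genes was 122, 155, 107 and 86.9 per 10000, below the 195 of background barcodes in every suspension and above the 51.9 to 75.8 of the deep types. Dcc, the netrin receptor of growing axons, was among the 15 most frequent genes with 276 UMIs, 34 of them in 1 cell, and stood at 22.9, 38.8, 22.2 and 21.5 per 10000. It had 13.7 in the deep types and 43.9 in background barcodes.

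**Figure D3:**
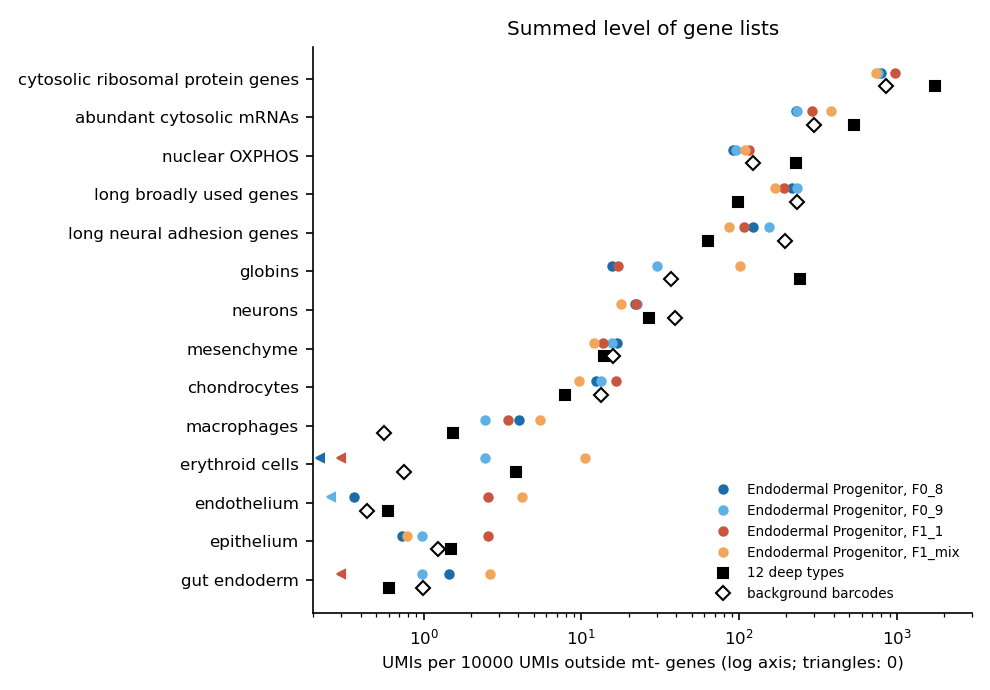
Summed levels of 14 gene lists per 10000 UMIs outside mt- genes (horizontal log axis) in the annotated cells of each suspension (points; triangles at the left edge are 0), in the 12 deep types (squares) and in background barcodes (diamonds). The points of the ribosomal protein genes, 739 to 973, lie near the diamond at 860 and left of the square at 1745.

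No marker list of another cell type filled the cluster. Neuronal genes stood at 20.7 per 10000 (22.7 without the deepest cell) with all 14 of the list detected and at least 1 UMI in 140 cells, below the 26.7 of the deep types and the 39.3 of background barcodes. Mesenchymal genes stood at 14.3 against 13.96 in the deep types and 15.97 in background barcodes. Chondrocyte genes had 12.5, 7.85 and 13.4 in the same order. At least 5 UMIs of 1 of 10 marker lists were found in 11 of the 268 cells (4.10%, exact 95% interval 2.07% to 7.23%). The deep types hold far more UMIs per cell, and in the 10 other than red blood cells 4099 of 4105 cells had as many. Macrophage genes gave 45 UMIs in 11 cells, and 4 cells, 1 from each suspension, held 36 of them. The mt- share of those 4 cells was 21.5% to 36.4%, below the median. Their level of 4.12 per 10000 compares with 1.54 in the deep types and 0.559 in background barcodes. Erythroid genes other than globins gave 45 UMIs, of which 40 were in 2 F1_mix cells, 24 of them in the deepest cell, and their level fell from 4.12 to 2.12 per 10000 without it. Globins gave 531 UMIs, of which 305 (57.4%) were in 1 F1_mix cell with an mt- share of 7.24%.

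The genes with the most UMIs outside the mitochondrial genome were of common use. Actb and Tmsb4x, which encode β-actin and the actin-binding thymosin β4, led with 418 and 368 UMIs, but 50.2% and 54.1% of them came from the deepest cell. Without it Actb fell from 38.2 to 21.0 per 10000, and it stood at 17.5, 23.1 and 16.7 in F0_8, F0_9 and F1_1 against 36.5 to 41.5 in the deep types. Cmss1, a homolog of a yeast factor of the small ribosomal subunit, came next with 333 UMIs in 171 cells. Eef1a1, Ptma, Rpl13 and Tpt1 were also among the 15 most frequent, each with 0.407 to 0.504 times its level in the deep types.

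Among genes with at least 30 UMIs that were higher in all 4 suspensions, Taco1 had the largest ratio to the deep types. This gene (chromosome 11, 106066057 to 106074035, GRCm38.p6, 7979 bp) encodes an activator of the translation of mt-Co1 inside mitochondria, and its mRNA comes from the nuclear genome. It gave 50, 47, 48 and 34 UMIs in F0_8, F0_9, F1_1 and F1_mix, spread over 105 cells with at most 9 in any. Its level was 18.2, 23.1, 20.5 and 8.93 per 10000 UMIs outside mt- genes, against 0.160 to 0.183 in the deep types, a ratio of 97.1 with suspensions pooled. The 4 suspensions lay far above the deep types, and without the deepest cell the ratio was 107. Hepatocyte, Midgut and Foregut cells had 3.83, 4.83 and 7.61 and background barcodes 0.543. Set against mt- UMIs in place of the others, the ratio to the deep types was far smaller. Taco1 gave 1.59 UMIs per 1000 mt- UMIs in the annotated cells, 1.77, 1.48 and 3.12 in Hepatocyte, Midgut and Foregut cells, 1.70 in background barcodes and 0.705 in the 10 deep types. By suspension it was 1.54, 2.04, 1.66 and 1.21, and those 10 deep types had 0.650 to 0.812. The red blood cell types had 0.754, 1.43, 1.54 and 1.43, which overlap the annotated cells. At least 1 UMI was found in 39.2% of the annotated cells (33.3% to 45.3%) and in 20.1% of deep cells, whose median depth outside mt- genes was 42.6 times as great.

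Of the other 14 genes with the largest ratios by the same rule, 10 owed much of it to the deepest cell or to a few cells. F13a1, which encodes a subunit of clotting factor XIII and is made by macrophages and megakaryocytes, had 58 UMIs in 5 cells. The ratios of Smim3, Vav3, Syne1, Cpeb4, Dlg2, Pard3b, Ptprj, Myh9 and Vcl fell from between 7.30 and 27.0 to between 1.52 and 5.61 without that cell. The 4 that did not fall were Cmss1, Lars2, Camk1d and Tspan18. Cmss1 (chromosome 16, 57301999 to 57606867) stood at 36.0, 39.7, 29.1 and 22.3 per 10000 against 2.28 to 2.55 in the deep types, and at 25.4 in background barcodes. Lars2, the mitochondrial leucyl-tRNA synthetase (chromosome 9, 123366927 to 123462675), stood at 5.09, 4.42, 3.85 and 4.73 against 0.384 to 0.444, with 3.08 in background barcodes. Camk1d, a calcium/calmodulin-dependent kinase, stood at 5.67 against 0.516, with 6.86 in background barcodes, and Tspan18, a tetraspanin, at 3.11 against 0.426, with 0.923. Of these 5 genes, Taco1 and Tspan18 were more than 3 times as high in the annotated cells as in background barcodes, and Cmss1, Lars2 and Camk1d were not.

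**Figure D4:**
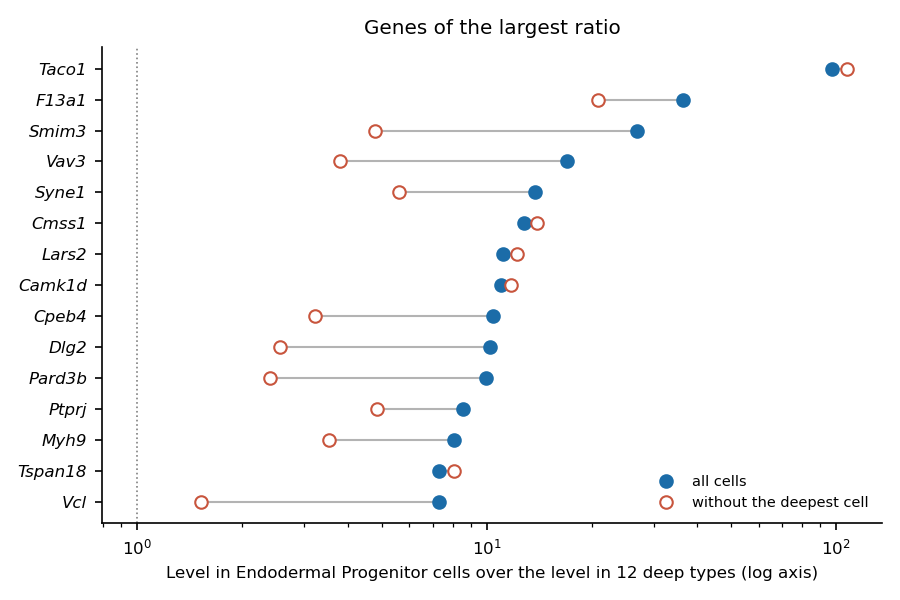
The 15 genes with the largest ratio of their level in the annotated cells to the 12 deep types (horizontal log axis), among those higher in all 4 suspensions, with all 268 cells (filled) and without the deepest cell (open). Taco1 stays near 97.1 and 107, and Cmss1, Lars2, Camk1d and Tspan18 barely move, whereas 9 of the other genes drop to between 1.52 and 5.61.

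At the other end, 6 of the 15 genes with the smallest ratio were globin genes, whose summed level is 242 per 10000 in the deep types and 6.06 with the red blood cell types left out. The annotated cells had 15.6, 30.4, 17.1 and 101 in F0_8, F0_9, F1_1 and F1_mix, below the first and above the second of these levels in every suspension, and background barcodes had 36.9. The 9 others included Rtn1, a reticulon of neuronal endoplasmic reticulum (0.549 against 3.15 per 10000, 6 UMIs), Arf4, a GTPase of the Golgi (0.457 against 2.93, 5 UMIs), and Crabp1, which binds retinoic acid (1.10 against 4.69). Dut and Ube2c, used in DNA synthesis and in mitosis, stood at 0.823 against 3.25 and 0.823 against 2.95. The 15 genes rest on 5 to 242 UMIs each, and 7 of them on fewer than 10.

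Of the profiles of deep types and of background barcodes, the background profile was nearest to most single cells. The UMIs outside mt- genes of each cell were compared with the profiles of the 12 deep types and of background barcodes, built without the cell's own suspension except for the background profile, which is shared. The background profile was the most likely one for 241 of 268 cells (89.9%, 85.7% to 93.3%), with 72 of 76, 52 of 56, 62 of 69 and 55 of 67 cells for F0_8, F0_9, F1_1 and F1_mix. The remaining 27 cells were spread over 10 deep types, with 7 nearest to Neuronal Progenitor and 5 to Hematoendothelial Progenitor/Endothelium. In the other shallow types the share nearest to background was higher, 99.1% in Hepatocyte, 98.8% in Midgut and 99.6% in Foregut cells. Deep cells thinned to 300 such UMIs were returned to their own type in 86.5% of 4309 cells and to background in 0.371%. Thinned deep cells keep the RNA make-up of deep cells. No profile of a shallow type or of barcodes below 100 gene UMIs was offered. The comparison therefore cannot tell a cell poor in RNA from background. With deep types as the only choice, 142 of the 268 cells were nearest to Gut Mesenchyme/Amniotic Mesoderm, 44 to Neuronal Progenitor and 31 to CNS Neuron.

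By the depth limits that define both, the annotated cells held more UMIs than background barcodes. An average background barcode had 138 UMIs outside mt- genes, which is 33.8% of those of the annotated cells when taken away once per cell, and 1.05% of their mt- UMIs. In the remainder, ribosomal protein genes stood at 7.80% and long genes at 31.2% (8.88% and 31.3% also without the deepest cell), near their values before. The profile taken away had 8.60% and 32.7%, close to the 8.07% and 31.7% of the annotated cells. Neither share could therefore move far, whatever the cells held. Other lists moved more. Neuronal genes went from 20.7 to 11.2 per 10000, long neural adhesion genes from 113 to 70.5, and macrophage genes from 4.12 to 5.93.

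Cells with a higher mt- share had more ribosomal protein RNA among their other UMIs. Ribosomal protein genes took 6.13% below an mt- share of 40% (33 cells, without the deepest), then 8.68% at 40% to 50% (36 cells), 9.48% at 50% to 60% (107), 10.0% at 60% to 70% (78) and 11.3% at 70% and over (13). The median number of mt- UMIs rose in the same steps from 185 to 334.5, 386, 469 and 606, and the UMIs outside mt- genes went down from 513 to 371, 311, 249 and 217. Since the mt- share is made of both quantities, this order of medians is in part given by the bins. Long genes took 31.6%, 33.3%, 31.8%, 31.4% and 29.0%, with little order. The uppermost bin holds 13 cells and 2907 UMIs outside mt- genes. Median oligo UMIs were 14810, 19500, 19640, 20870.5 and 21066 from the lowest to the highest bin.

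In the clustering that the authors made before noise reduction with RECODE, 202 of the 268 cells (75.4%) formed most of 1 cluster of 227 cells, and 66 lay in clusters named for other types. The largest of these groups was 38 cells in the cluster of 487 that became mostly Hepatocyte. They had a median mt- share of 50.5%, against 58.3% in the 202 cells, ribosomal protein genes at 7.27% against 9.85% and long genes at 37.8% against 29.7%. Mesenchymal genes were at 25.4 against 15.9 per 10000, and neuronal genes at 9.03 against 25.7. All Hepatocyte cells had mesenchymal genes at 29.2. A further 12 cells lay in the cluster that became mostly Foregut, with genes of neural progenitors at 15.3 against 4.89 in the 202 cells and 13.6 in Foregut. In the Midgut cluster lay 7, with neuronal genes at 63.1 and long neural adhesion genes at 289, against 74.5 and 420 in Midgut. These 12 and 7 cells hold 5871 and 3326 UMIs outside mt- genes. The 268 cells were thus not uniform in these lists. The clusters were formed from these genes, and no test applies.

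Founders and F1 suspensions were compared to ask whether the cluster differed between generations. In F0_8 they were 4.75% of all cells (3.76% to 5.91%) and in F0_9 4.25% (3.23% to 5.48%). The shares were 5.27% (4.12% to 6.62%) for F1_1 and 4.62% (3.60% to 5.83%) for F1_mix. The F1 mean was 0.441 points above the founder mean (two-sided exact permutation p = 0.667, where 0.333 is the smallest that 2 against 2 suspensions allow). The pooled mt- share was 4.80 points lower in F1 (exact permutation p = 1), and 1.02 points lower without the deepest cell. Across 414 genes outside mt- that passed edgeR's filter, 0 genes differed at an adjusted p under 0.05 in edgeR's quasi-likelihood test with Benjamini-Hochberg adjustment (a background of 0% called), with 37 at an unadjusted p under 0.05. DESeq2 called 0 as well, with 8 at an unadjusted p under 0.05. The lowest adjusted p in edgeR was 0.157, for Tmsb4x and Pkm. Tmsb4x gave 13.5, 11.8, 22.7 and 66.7 per 10000 in F0_8, F0_9, F1_1 and F1_mix, and most of the last value was the deepest cell. Without that cell 2 genes passed, Hbb-y and Hba-x, the embryonic globins, with adjusted p of 0.000561 and 0.000687. The groups overlapped for both, and 1 globin-rich F1_mix cell gave 173 of the 242 UMIs of Hbb-y and 81 of the 101 of Hba-x. Taco1 had an adjusted p of 0.791, and Cmss1 of 0.694. Suspensions may differ through handling as well as generation, which cannot be told apart here.

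EGFP was left out of the authors' normalization and clustering, so its UMIs did not enter the naming of the cells, although the UMIs by which its level is divided did. The annotated cells gave 28, 20, 45 and 50 EGFP UMIs in F0_8, F0_9, F1_1 and F1_mix, or 10.2, 9.81, 19.2 and 13.1 per 10000 UMIs outside mt- genes. Of the 50 UMIs of F1_mix, 25 came from the deepest cell, and without it the level there was 8.94. The 10 deep types outside red blood cells had 13.3, 11.9, 26.6 and 11.8, so in both groups of cells F1_1 was the highest. The mean ratio of the annotated cells to those types was 0.845 (two-sided exact sign-flip permutation p = 0.25, adjusted over 4 comparisons 0.25), and they were higher in 1 of 4 suspensions. Without the deepest cell it was 0.767, and lower in each of the suspensions (exact p = 0.125, the smallest that 4 pairs allow). Over all gene UMIs the ratio was 0.420, with 0 of 4 above (exact p = 0.125), and after removal of the mean background barcode it was 0.999, with 2 of 4 above (exact p = 1).

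Among the shallow types the annotated cells had the highest EGFP level per UMI outside mt- genes in each suspension, but not per gene UMI. Hepatocyte cells had 6.08, 5.51, 11.6 and 6.70 per 10000, Midgut cells 4.19, 5.93, 13.4 and 5.36, and Foregut cells 5.21, 6.14, 12.1 and 7.57. The mean ratio of the annotated cells was 1.77 to Hepatocyte, 1.94 to Midgut and 1.71 to Foregut, and each was above 1 in 4 of 4 suspensions with and without the deepest cell. Each comparison reached the smallest exact permutation p that the design allows, 0.125 (adjusted 0.167), which is not past 0.05. With all gene UMIs as the total, mt- included, the mean ratios were 1.05 to Hepatocyte (above 1 in 2 of 4 suspensions, exact permutation p = 0.875), 1.27 to Midgut (3 of 4, p = 0.375) and 1.04 to Foregut (2 of 4, p = 0.75). On that scale the annotated cells of F1_1, at 8.61, were below Hepatocyte (9.34), Midgut (10.1) and Foregut (9.88). The order of the shallow types thus depended on whether mt- UMIs were counted. Background barcodes, which pool all suspensions, had 8.09. After the mean background barcode was taken away once per cell, the annotated cells had from 10.9 in F0_9 to 26.9 in F1_1.

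The share of cells with an EGFP UMI was 27.6%, 25.0%, 49.3% and 28.4% at a median of 293 to 345 UMIs outside mt- genes. After thinning every cell to 200 such UMIs, with 3 shallower cells left out, the shares were 15.1%, 21.4%, 37.7% and 17.9%. Deep cells thinned alike gave 25.1%, 20.3%, 43.0% and 22.2%, and the red blood cell types, whose EGFP level was 1.05 per 10000 at a median of 26951 UMIs, gave 0.980% over all suspensions. At this depth the annotated cells were above Hepatocyte, Midgut and Foregut cells in 4 of 4 suspensions, and above the deep types in 1.

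**Figure D5:**
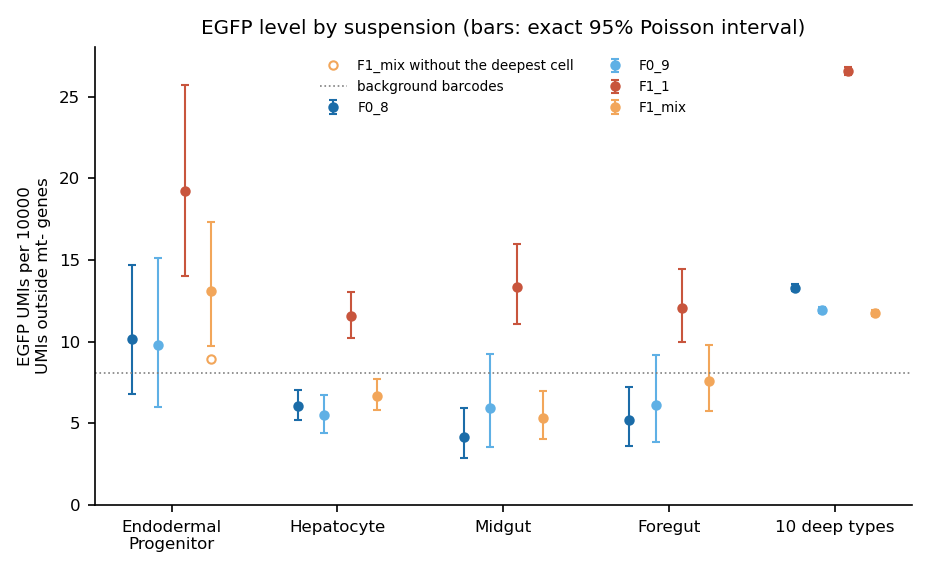
EGFP UMIs per 10000 UMIs outside mt- genes in each suspension for the annotated cells, the other shallow types and the 10 deep types outside red blood cells; bars are exact 95% Poisson intervals, the open point is F1_mix without the deepest cell (8.94), and the dotted line is the level of background barcodes, 8.09. F1_1 is highest in each type, and on this scale, though not over all gene UMIs, the annotated cells lie above the 3 other shallow types in every suspension.

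The labelling oligos, which mark the outer membrane of a cell, were somewhat fewer than in the deep types in 3 of 4 suspensions by the median. The annotated cells had a median of 17014.5, 19986, 22856 and 21567 oligo UMIs in F0_8, F0_9, F1_1 and F1_mix, against 18271, 19182, 27663 and 29128 in the 10 deep types. The mean ratio of medians was 0.878 (two-sided exact sign-flip permutation p = 0.25), and the annotated cells were higher in 1 of 4 suspensions. By the mean over cells the ratio was 0.873, with 0 of 4 higher (exact permutation p = 0.125, the smallest possible). A median of 96.96% of their oligo UMIs came from the oligo of their own suspension, against 97.5% in the deep types. In background barcodes the median was 514 oligo UMIs. The amount of label per cell thus stood at 0.740 to 1.04 times that of the deep types in the 4 suspensions, while UMIs outside mt- genes were fewer by a factor of 38.1 to 51.7.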

How the data were processed

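One gene expression library of 4 multiplexed suspensions was analysed, together with the oligo counts in the same matrices. Per the file headers, the authors deposited UMI counts made with Cell Ranger 7.2.0 on mm10 with EGFP added. Their cell table, of which 6 columns were used and 16 were not, gave cell types, cluster numbers, totals (deposited counts over gene and oligo UMIs) and a mitochondrial percent deposited by the authors. The methods of the study name SoupX, DoubletFinder and RECODE, none of which was rerun, and all values come from uncorrected counts. Depth of the annotated cells was 504 to 10237 gene UMIs per cell, and 43442 to 66114 per suspension.

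Levels are UMIs summed over cells per 10000 UMIs outside the 13 mt- genes, with exact Poisson intervals, and shares carry exact Clopper-Pearson intervals (both 95%). Lengths and positions came from RefSeq for GRCm38.p6 (96.7% of 21937 genes matched by symbol). Closest profiles used the multinomial likelihood, with each profile mixed with 1% of the sum of all profiles, and deep cells thinned to 300 UMIs served as a check. Counts summed per suspension were tested with edgeR 4.0.16 (filterByExpr, TMM, quasi-likelihood test), tried on simulated data, with DESeq2 1.42.0 as an alternative (R 4.3.3). Single values were compared over suspensions with two-sided exact permutation tests. Python 3.11.15, numpy 2.4.6, pandas 2.3.3, scipy 1.17.1 and matplotlib 3.10.9 were used. Named genes were the marker lists, the mt- genes, the 15 most frequent genes, and the 15 with the largest and smallest ratio to the deep types (at least 30 UMIs found or expected and the same side in 4 suspensions), EGFP, and up to 10 genes per direction of the generation test (none passed). Genes named as nearest to that threshold and the genes of the deepest cell were chosen after their values were seen. The members and lists were chosen with earlier results of these data known.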

Additional observations from a re-analysis of the deposited data

Results flagged for a closer look

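Mitochondria-rich barcodes continued below the depth of the annotated cells. Among barcodes of 300 to 500 gene UMIs that belong to no suspension matrix, 438 of 781 (56.1%) had an mt- share of 40% or more, against 0.466% of the background barcodes of 100 to 300 gene UMIs. Their median was 391 gene UMIs and 11453.5 oligo UMIs, and a median of 95.1% of the latter came from 1 oligo. In 360 of them (82.2%) 1 oligo gave 80% or more. Ribosomal protein genes took 9.66% and genes over 100 kb 31.2% of their UMIs outside mt- genes, near the 8.07% and 31.7% of the annotated cells, and their EGFP level was 9.01 per 10000. No comparison above uses these barcodes.

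Of 19 measures looked at over the 4 suspensions, 2 had F1_mix far from the others, by Dixon's gap, where chance gives about 1 in 20. One was the pooled mt- share of 42.4% (49.96% without the deepest cell), and the other was the level of neuronal genes at 17.9 per 10000 against 21.8 to 22.6. Without the deepest cell, which held 1 of the 68 neuronal UMIs of F1_mix, that level was 23.96, the highest of the 4 suspensions.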

How the results depend on the processing

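No paired analysis was possible because the suspensions of the 2 generations share no replicate numbers, and the series has 1 gene expression library. The generation test called 0 genes with DESeq2 size factors, with DESeq2, with mt- genes included, in cells under a 50% mt- share (51 genes tested), with a 500 UMI minimum and without F0_8 or F1_mix. It called 45 of 11438 genes without the filter on low counts and, as chosen after seeing the data, 2 without the deepest cell. Leaving out 1 suspension gave 0 to 70 genes, with 20 without F0_9 and 70 without F1_1, all higher in F1. There the lone suspension was assumed to vary like the others, and F1_mix with its deepest cell remained. The F1 minus founder difference in mt- share ranged from -11.2 to 1.63 points when 1 suspension was left out, and turned positive without F1_mix. The difference in the share of cells was -0.517 points over the 4 shallow types as the total, and 0.117 to 0.766 when 1 suspension was left out. The mean log2 EGFP ratio to the deep types ranged from -1.25 to -0.00118, where the last is no difference, and the oligo ratio from -0.271 to -0.106. Leaving out 1 suspension gave -0.378 to -0.169 for EGFP. The lowest of the EGFP ratios was over all gene UMIs and the highest after removal of background. The EGFP ratios to Hepatocyte, Midgut and Foregut fell to 1.05, 1.27 and 1.04 over all gene UMIs, a scale added after seeing the data. Ribosomal protein genes stood at 398 per 10000 over all gene UMIs and at 589 in cells under a 50% mt- share, in place of 807. Of 144 alternative list levels, 124 moved by less than 1 SD between suspensions. Leaving out 1 of 4 suspensions or weighting them equally can hardly move a level that far, and 0 of those values did. Of 16 lists, 10 moved further over all gene UMIs, 7 in cells under a 50% mt- share and 3 after removal of background. The closest profile was background in 89.9% and 90.7% under its alternatives. Depth limits single genes, since 3 UMIs in all cells give 0.274 per 10000.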
